A study of Mus musculus with 13 samples.

Results

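The 10 genes described here are feedback genes of the ERK pathway: the phosphatase genes Dusp4, Dusp5 and Dusp6, the Sprouty genes Spry1, Spry2 and Spry4, the Spred genes Spred1 and Spred2, and the ETS transcription factor genes Etv4 and Etv5. They were chosen by name, through their Ensembl identifiers and GRCm38 symbols, with earlier results of these data known. The set makes up 10 of the 34856 genes measured. They were measured by poly(A) RNA sequencing in 13 libraries from the mouse neuroblastoma line Neuro2a. Cells of all groups had been stored in vials with 10% DMSO, a cryoprotectant. Experimental vials went through a staged storage failure. The liquid nitrogen was given 10 h to evaporate, and 24 h more were given to settle at 4 °C. A second freezing at -80 °C for 72 h followed. Control vials stayed in normal storage until they were plated. RNA was taken at passage 1, early in the recovery of the experimental cells (3 control and 4 experimental libraries), and at passage 6, when the cells looked normal (3 and 3 libraries). The comparison asks whether cells that came through the storage failure differ from time-matched controls, and whether they still do after further passages. Levels are FPKM, fragment counts scaled to transcript length and to the mapped fragments of the library, so the number of reads behind a value is unknown. The labels do not say whether replicates were separate vials or cultures, so p-values measure the spread between these libraries alone, and that spread may be technical. In bulk RNA, fewer cells with a transcript and less of it per cell cannot be told apart.

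Growth factor receptors signal through Ras, the RAF kinases and MEK to the ERK kinases, which enter the nucleus and change transcription. Among the genes that this induces are inhibitors of the same route, so a lasting signal limits itself. The DUSP proteins remove the activating phosphates from ERK, Sprouty proteins act between receptor and RAF, Spred proteins bring the Ras inhibitor neurofibromin to the membrane, and Etv4 and Etv5 carry part of the transcriptional output. In the absence of signal the repressor Capicua holds several of these genes down. RNA levels of such genes are widely used as a readout of the pathway, while phosphorylated ERK itself was not measured here.

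Promoter sequences from RefSeq (GRCm38.p6) were found for 7 of the 10 genes, in 8 windows of 250 bases before a RefSeq start of transcription. The 3 shown are those that held a searched motif, given 5′ to 3′ along the gene with the motif in capitals. In Spry2 (chr14:105896820-105897069, minus strand) and Dusp6 (chr10:99262981-99263230, plus strand) the capitals mark a Capicua octamer on the opposite strand. In Dusp5 (chr19:53528895-53529108, plus strand, printed without its last 36 bases, since the GRCm38 annotation starts the gene 36 bases ahead of the RefSeq start) they mark a pair of CArG boxes, the binding motif of serum response factor.
Spry2: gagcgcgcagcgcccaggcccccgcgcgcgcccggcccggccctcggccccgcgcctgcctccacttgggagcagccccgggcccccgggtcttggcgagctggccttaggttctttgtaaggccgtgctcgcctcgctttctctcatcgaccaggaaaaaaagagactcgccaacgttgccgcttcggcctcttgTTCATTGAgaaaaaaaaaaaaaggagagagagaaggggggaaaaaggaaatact
Dusp6: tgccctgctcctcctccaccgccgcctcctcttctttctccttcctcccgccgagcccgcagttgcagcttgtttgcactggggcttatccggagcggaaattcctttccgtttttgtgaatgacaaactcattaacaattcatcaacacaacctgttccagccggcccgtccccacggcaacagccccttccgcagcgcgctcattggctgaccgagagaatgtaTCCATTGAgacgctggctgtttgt
Dusp5: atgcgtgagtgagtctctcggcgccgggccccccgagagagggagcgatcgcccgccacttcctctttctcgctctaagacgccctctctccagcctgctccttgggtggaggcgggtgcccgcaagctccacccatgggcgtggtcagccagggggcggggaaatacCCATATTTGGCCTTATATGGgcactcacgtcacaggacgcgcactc

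The Capicua octamer of Spry2 lay 54 to 47 bases before the RefSeq start, that of Dusp6 24 to 17 bases before it, and the CArG boxes of Dusp5 82 to 73 and 72 to 63 bases before it, side by side without overlap. Both strands of all 250 bases of each window, unprinted bases included, were searched for the octamers TGAATGAA, TCAATGAA, TGAATGGA and TCAATGGA, for the ETS motif CCGGAAGT, the AP-1 motif TGACTCA, the CRE motif TGACGTCA and the CArG box. None of these letters contains another. One of the 4 octamers was present in 2 of the 8 windows, and in 3.19% of 32851 mouse promoter windows of the same length. The CArG box was present in 1 of the 8 windows and in 1.47% of all windows. The ETS, AP-1 and CRE motifs were in 2.88%, 4.46% and 1.55% of all windows and in 0 of the 8, which says only that these letters are not in them. A match is a description of the sequence and not a binding site shown by these data.

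The libraries carried the markers of a neuroblastoma line: 14 of 16 such markers passed the filter described below at each passage, and the neurofilament gene Nefl was listed at 0 in every control library. Their summed level was lower in the experimental libraries at passage 1 (953 to 988 FPKM, against 1045 to 1080 in controls) and higher in them at passage 6 (1249 to 1350 against 1142 to 1194 FPKM), with no overlap at either passage. Of the 14 tested, 3 were called higher and 4 lower at passage 1, and 3 higher and 1 lower at passage 6, and their part in the changes of the feedback genes was not tested. Transcripts of other tissues were present unevenly. Over 20 colon epithelium markers the sum was 270.0 to 601 FPKM in passage 1 controls, with 229, 223, 6.46 and 114 FPKM in experimental libraries 1 to 4. Over 12 cartilage markers it was 6.36 FPKM in passage 1 control 1 and 7.85 FPKM in experimental library 4, against 29.9 to 48.2 FPKM in each of 5 others. At passage 6 the control sums were 148 to 287 FPKM for colon and 32.6 to 57.1 FPKM for cartilage. Experimental libraries 1 to 3 had colon sums of 129, 5.06 and 5.62 FPKM and cartilage sums of 16.2 to 18.6 FPKM. Experimental libraries 2 and 3 of passage 6 also held 207 and 166 FPKM of 12 liver markers, against at most 1.26 FPKM in every other library, where 6 or more of these markers, albumin (Alb) among them, were at 0 in each of the other 3 groups. They held 57.4 and 44.9 FPKM of 10 brain markers, against 6.33 to 13.8 FPKM elsewhere, and 6 blood and immune markers summed to 0.0908 to 24.6 FPKM over all libraries. Results are therefore also given without passage 1 control 1 and experimental library 4 together, and without passage 6 experimental libraries 2 and 3, which leaves 1 experimental library that is assumed to vary like the controls. The pair of passage 1 is the one with low cartilage sums. Colon sums stay uneven without that pair, since experimental library 3 at 6.46 FPKM is kept.

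At passage 1 most of the feedback genes were higher in cells that had come through the storage failure. Of the 10 genes, 8 rose (limma on log2(FPKM + 1), Benjamini-Hochberg adjusted over all genes, threshold 0.05) and 0 fell, led by Spry2 at 1.86-fold. Among all 12469 genes tested at passage 1, 30.4% were called changed and 11.5% called higher. The median log2 change was 0.41 over the 10 genes and -0.05 over all genes tested. In 9 of the 10 genes every experimental library lay above every control library, and Etv4 was the exception. How many of all genes tested were separated in this way was not counted. All 10 genes passed the filter of at least 1 FPKM in at least 3 libraries at both passages. Higher genes made up 37.8% of all called genes, and 55.7% with median-of-ratios scaling of the libraries, under which 9 of the 10 feedback genes were called higher. The count fell to 4 without control 1, control 2 or experimental library 4, to 3 without control 3, and to 3 without control 1 and experimental library 4 together. The 3 that were then called were Dusp6 (adjusted p = 0.0310), Spry2 (0.00605) and Spry4 (0.0174, limma). Calls over all genes fell too, from 30.4% to 17, 16.7 and 17% without control 1, 2 and 3. They were 23% without experimental library 4, and 8.02% without control 1 and experimental library 4 together.

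**Figure D1:**
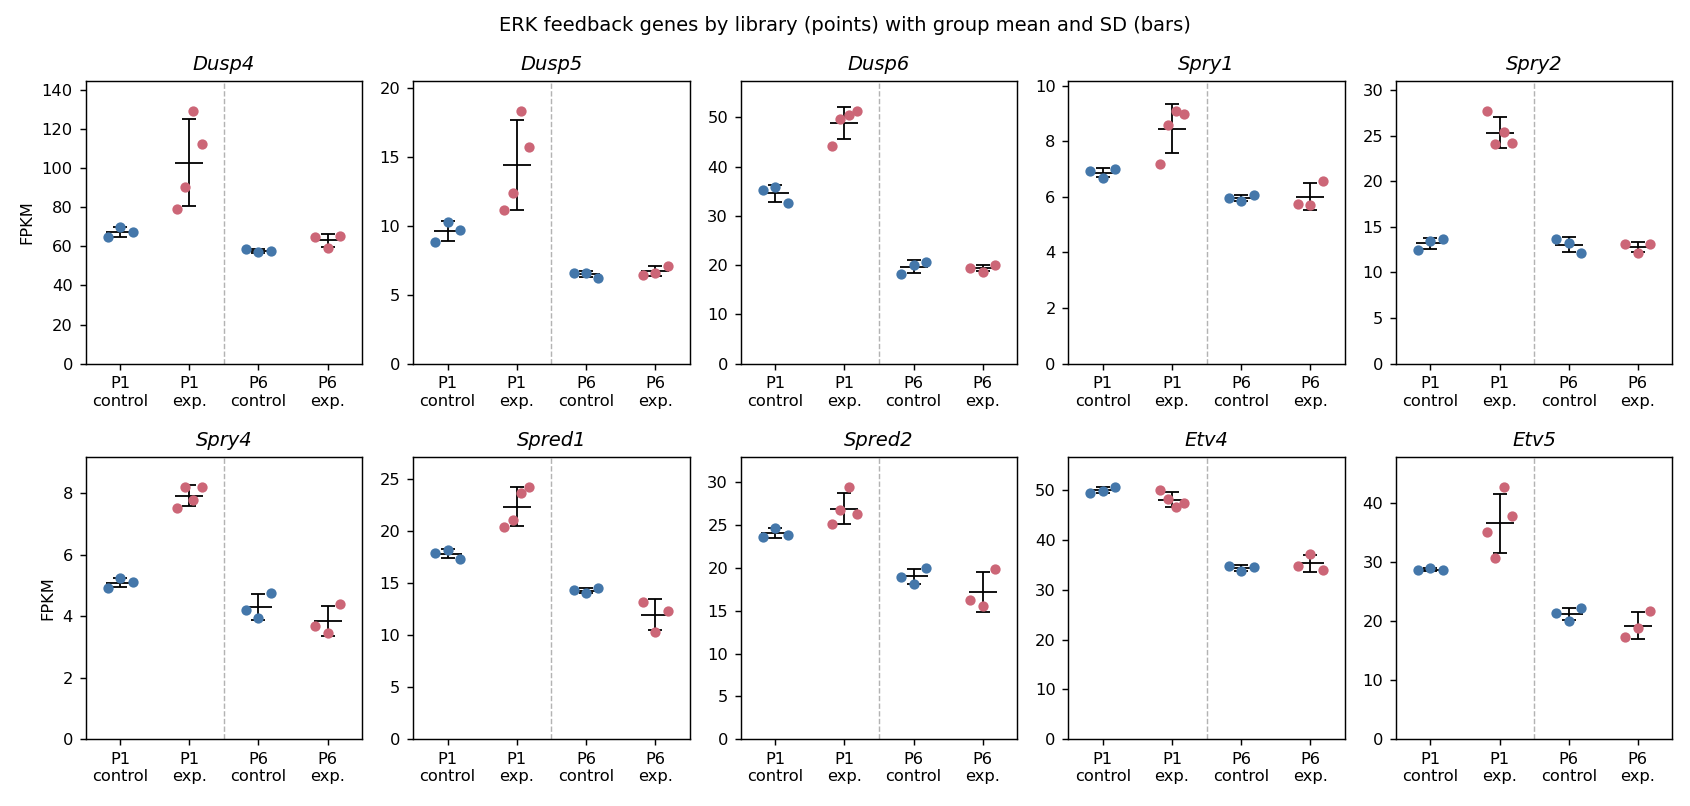
FPKM of the 10 feedback genes in each of the 13 libraries (points, y axis from 0), by group on the x axis, with horizontal lines for the mean and bars for the SD. At passage 1 (left of the dashed line) the experimental libraries lie above the controls for every gene but Etv4, while at passage 6 (right) groups overlap for all but Dusp4 and Spred1.

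The 3 phosphatase genes were all higher at passage 1. Dusp4 encodes a nuclear phosphatase that acts on ERK and on the stress kinases (ENSMUSG00000031530, chr8:34807297-34819894, plus strand, GRCm38). It had the highest level of the 10 genes, with control values of 64.7, 69.6 and 67.3 FPKM and 79.3, 90.4, 129 and 112 FPKM in experimental libraries 1 to 4. The groups did not overlap, and experimental libraries 3 and 4 stood well above libraries 1 and 2. The mean was 103 ± 22.3 against 67.2 ± 2.48 FPKM (SD, n = 4 and 3), a log2 change of 0.58 (SE 0.15, 1.50-fold, adjusted p = 0.0219, limma). Dusp5, a nuclear phosphatase specific for ERK (ENSMUSG00000034765, chr19:53529109-53542431, plus strand), had control values of 8.84, 10.3 and 9.72 FPKM, with 11.1, 12.4, 18.3 and 15.7 FPKM in the experimental libraries. The order of the libraries was that of Dusp4, again with no overlap. Its log2 change was 0.51 (SE 0.15, 1.43-fold, adjusted p = 0.0359, limma). Dusp6, the cytoplasmic phosphatase that is specific for ERK (ENSMUSG00000019960, chr10:99263231-99267489, plus strand), had control values of 35.3, 35.9 and 32.7 FPKM, with 44.1, 49.7, 50.5 and 51.2 FPKM in the experimental libraries. Its 4 experimental libraries lay closer together than those of Dusp4 and all were above the controls. The log2 change was 0.48 (SE 0.06, 1.40-fold, adjusted p = 0.00148, limma).

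The calls of Dusp4 and Dusp5, the members with the widest intervals, ended when any single control or experimental library 4 was left out. Those fits also called fewer genes of all tested, 16.7 to 23% against 30.4%. Dusp4 was not called without control 1, 2 or 3 (adjusted p = 0.0750, 0.0603 and 0.0687) or experimental library 4 (0.0575, limma). Dusp5 was not called without the same libraries, with adjusted p of 0.119, 0.0752, 0.0943 and 0.0870. Dusp6 was called without any single library, at adjusted p of 0.00122 to 0.0108. Without both control 1 and experimental library 4 the log2 change was 0.50 for Dusp4 (adjusted p = 0.156), 0.41 for Dusp5 (0.227) and 0.48 for Dusp6. An antisense transcript, AC137853.2, overlaps Dusp5 over 547 bases and had at most 0.0840 FPKM.

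All 3 Sprouty genes rose at passage 1, and Spry2 had the largest log2 change of the 10 genes. Spry2 encodes an inhibitor of receptor tyrosine kinase signalling upstream of RAF (ENSMUSG00000022114, chr14:105891947-105896819, minus strand). It had control values of 12.5, 13.4 and 13.6 FPKM, with 27.7, 24.1, 25.4 and 24.2 FPKM in the experimental libraries. The lowest experimental library was far above the highest control, and the highest was library 1, in which most other feedback genes were at their lowest among the experimental libraries. The mean was 25.3 ± 1.66 against 13.2 ± 0.605 FPKM (SD, n = 4 and 3), a log2 change of 0.89 (SE 0.06, adjusted p = 0.000102, limma). Spry4, an inhibitor of the same family (ENSMUSG00000024427, chr18:38586247-38601415, minus strand), was the lowest of the 10 genes, with control values of 4.93, 5.23 and 5.11 FPKM and experimental values of 7.51, 8.20, 7.79 and 8.19 FPKM. All 4 experimental libraries were close together and above the controls. Spry4 had a log2 change of 0.55 (SE 0.05, 1.46-fold, adjusted p = 0.000367, limma). The calls of Spry2 and Spry4 held without any single library of the passage.

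Spry1 had the smallest log2 change of the Sprouty genes. It also encodes an inhibitor of growth factor signalling (ENSMUSG00000037211, chr3:37639947-37644598, plus strand). Control values were 6.93, 6.69 and 6.99 FPKM, with 7.16, 8.57, 9.08 and 8.97 FPKM in the experimental libraries. Library 1 lay just above the controls and the other 3 clearly above. Spry1 had a log2 change of 0.26 (SE 0.08, 1.20-fold, adjusted p = 0.0390, limma). Leaving out control 1, 2 or 3 gave adjusted p of 0.103, 0.123 and 0.0975, and leaving out experimental library 2, 3 or 4 gave 0.0644, 0.0672 and 0.0938, none of them called. Annotated transcripts on the opposite strand overlap Spry1 (Gm42922, at most 0.578 FPKM) and Spry4 (Gm27369 and Gm27804, at most 0.361 and 0.244 FPKM).

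Of the Spred genes, Spred1 rose and Spred2 was not called at passage 1. Spred1, the gene mutated in Legius syndrome (ENSMUSG00000027351, chr2:117121374-117182279, plus strand), had control values of 17.9, 18.2 and 17.4 FPKM, with 20.4, 21.1, 23.6 and 24.3 FPKM in the experimental libraries. The groups did not overlap, with libraries 3 and 4 highest. Spred1 had a log2 change of 0.31 (SE 0.07, 1.24-fold, adjusted p = 0.0114, limma), and adjusted p was 0.0531 without control 3 and 0.0944 without control 1 and experimental library 4 together. Spred2, its paralog (ENSMUSG00000045671, chr11:19924375-20024026, plus strand), had control values of 23.6, 24.7 and 23.8 FPKM, with 25.1, 26.7, 29.4 and 26.2 FPKM in the experimental libraries. Here too the experimental libraries all lay above the controls, but library 1 only narrowly. The log2 change of 0.15 (SE 0.06, 95% interval 0.02 to 0.29) had an adjusted p of 0.0811, and of 0.0494 without experimental library 1 (limma).

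The PEA3 factor genes differed from each other. Etv5 encodes an ETS family activator that ERK signalling induces (ENSMUSG00000013089, chr16:22381309-22439719, minus strand). It had control values of 28.6, 29.0 and 28.6 FPKM, with 35.1, 30.7, 42.7 and 37.8 FPKM in the experimental libraries. The controls were nearly equal, while the experimental libraries ranged widely above them, library 2 being the nearest. Etv5 had a log2 change of 0.33 (SE 0.10, 1.26-fold, adjusted p = 0.0360, limma), and it was not called when control 1, 2 or 3 (adjusted p = 0.102, 0.0959 and 0.103) or experimental library 1 or 4 (0.0549 and 0.0846) was left out. Etv4, the closest relative of Etv5 among the 10 genes (ENSMUSG00000017724, chr11:101769742-101785371, minus strand), had control values of 49.4, 49.8 and 50.6 FPKM, with 50.0, 48.2, 46.6 and 47.4 FPKM in the experimental libraries. Experimental library 1 lay among the controls and the other 3 below them. The log2 change was -0.05 (SE 0.04, 95% interval -0.15 to 0.04, adjusted p = 0.349, limma), and 0.01 with median-of-ratios scaling. The interval of Etv4 ended below that of Etv5, which ran from 0.10 to 0.55, but the difference between these genes was not tested.

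**Figure D2:**
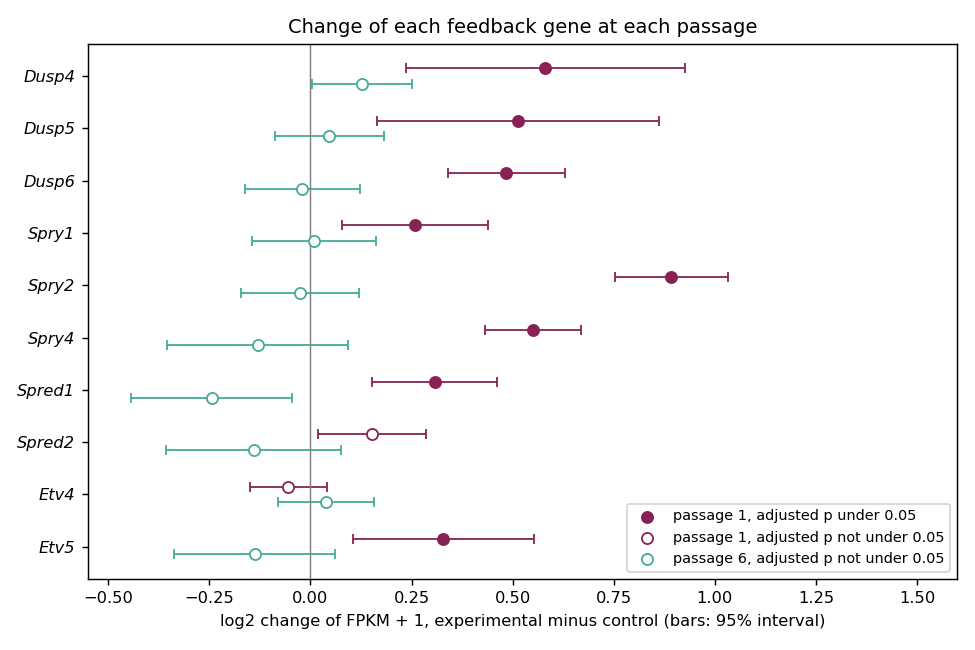
Log2 change of FPKM + 1 (x axis) between experimental and control libraries for each of the 10 genes (y axis) at passage 1 (upper marker of each pair) and passage 6 (lower marker), with 95% intervals. Filled markers, all of them at passage 1, have an adjusted p under 0.05, and Spry2 at passage 1 stands furthest to the right at 0.89.

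The 4 experimental libraries of passage 1 did not carry the change equally. Relative to the control mean, the median log2 difference over the 10 genes was 0.22 in library 1, 0.31 in library 2, 0.53 in library 3 and 0.49 in library 4, and between -0.02 and 0.03 in the controls. Library 1 held the lowest experimental value for 7 of the 10 genes and library 3 the highest for 5. Dusp4 ranged from 0.24 in library 1 to 0.93 in library 3, while Spry4 ranged only from 0.48 to 0.60. The colon marker sums of the same libraries were 229, 223, 6.46 and 114 FPKM and the cartilage sums 29.9, 31.4, 33.9 and 7.85 FPKM. Their part in the differences between these libraries was not tested.

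**Figure D3:**
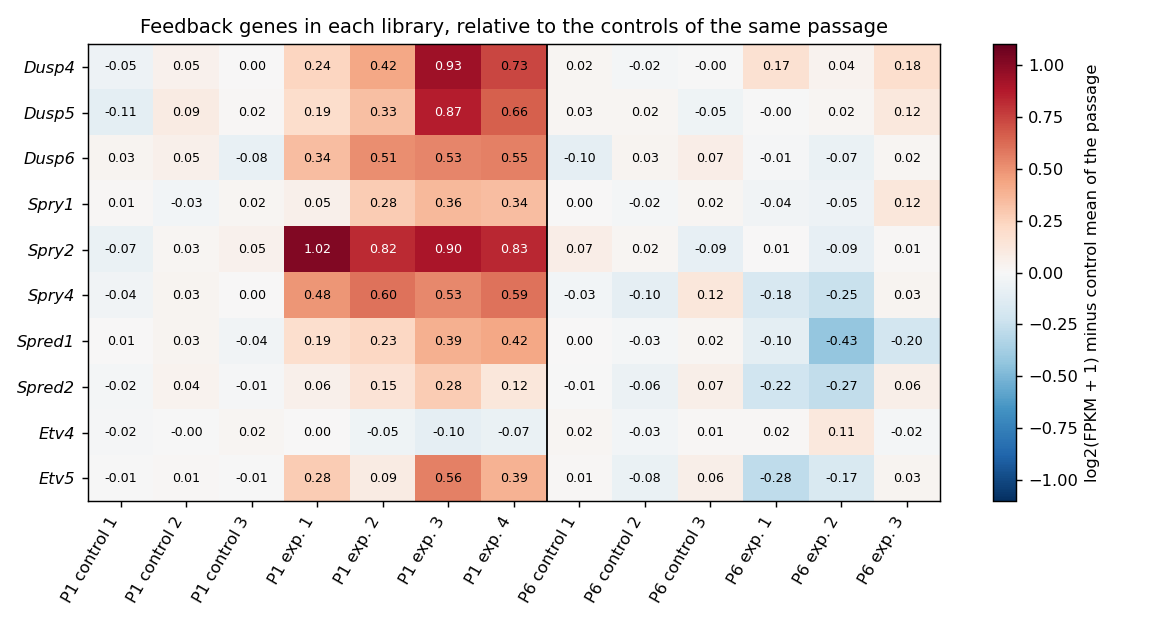
Heat map of log2(FPKM + 1) minus the mean of the controls of the same passage, for the 10 genes (rows) in the 13 libraries (columns), with the value printed in each cell and red for higher. The passage 1 experimental columns are red or pale red except for Etv4, deepest in libraries 3 and 4 for Dusp4 and Dusp5 and in library 1 for Spry2 (1.02), and the passage 6 columns are pale, with Spred1 at -0.43 in experimental library 2.

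At passage 6 none of the 10 feedback genes was called changed by limma, in a comparison in which 19.8% of 12458 genes were called. At an unadjusted p under 0.05 there were 2, Dusp4 higher and Spred1 lower. Over all genes tested, 4540 of 12458 reached that unadjusted threshold (limma). The median log2 change over the 10 genes was -0.02, and -0.04 over all genes tested. Of all called genes 45.5% were higher, and 57.6% with median-of-ratios scaling. With array weights, and with 1 fit over both passages, 1 gene was called, Spred1 in both cases (adjusted p = 0.0271 and 0.0473, limma). Those fits called 28.4 and 23.7% of all genes tested.

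Values of the phosphatase genes at passage 6 lay close to those of their controls. Dusp4 had control values of 58.5, 56.9 and 57.4 FPKM, with 64.7, 59.2 and 65.4 FPKM in the experimental libraries. The groups did not overlap, although library 2 was only just above the controls. The log2 change was 0.13 (SE 0.05, 95% interval 0.0048 to 0.25, adjusted p = 0.126, limma), with adjusted p = 0.0439 without experimental library 2 and 0.0325 without libraries 2 and 3. Dusp5 had control values of 6.60, 6.60 and 6.22 FPKM, with 6.46, 6.60 and 7.10 FPKM in the experimental libraries, and Dusp6 was at 18.3, 20.1 and 20.7 against 19.5, 18.7 and 19.9 FPKM. Experimental and control libraries of both genes were intermixed. Their 95% intervals for the log2 change were -0.09 to 0.18 and -0.16 to 0.12 (adjusted p = 0.597 and 0.834, limma).

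Sprouty genes at passage 6 gave overlapping groups in each case. Spry2 had control values of 13.7, 13.2 and 12.1 FPKM, with 13.1, 12.1 and 13.1 FPKM in the experimental libraries. Its log2 change of -0.03 had a 95% interval of -0.17 to 0.12 (adjusted p = 0.801, limma), which lies below the passage 1 interval of 0.75 to 1.03, and it was 0.01 with median-of-ratios scaling. Spry1 was at 5.96, 5.84 and 6.07 against 5.76, 5.70 and 6.57 FPKM, with an interval of -0.14 to 0.16 (adjusted p = 0.943). Experimental library 3 alone lay above the Spry1 controls. Spry4 had control values of 4.19, 3.95 and 4.76 FPKM, with 3.67, 3.46 and 4.41 FPKM in the experimental libraries, with a log2 change of -0.13 (95% interval -0.35 to 0.09, adjusted p = 0.359, limma).

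Of the 10 genes, Spred1 had the log2 change furthest from 0 at passage 6. Its controls were at 14.3, 14.0 and 14.5 FPKM and its experimental libraries at 13.2, 10.4 and 12.3 FPKM. All 3 experimental libraries were below the controls, library 2 the furthest. The log2 change was -0.24 (SE 0.08, 95% interval -0.44 to -0.04, adjusted p = 0.0844, limma), and adjusted p was 0.0173 without experimental library 1 and 0.173 without libraries 2 and 3. Spred2 was at 18.9, 18.1 and 19.9 against 16.2, 15.6 and 19.9 FPKM (log2 change -0.14, adjusted p = 0.310), and Etv5 at 21.4, 20.1 and 22.2 against 17.3, 18.8 and 21.7 FPKM (log2 change -0.14, adjusted p = 0.281). In both genes experimental libraries 1 and 2 lay below the controls and library 3 among them. Etv5 had an adjusted p of 0.0383 without experimental libraries 2 and 3. Etv4 had control values of 34.7, 33.7 and 34.5 FPKM, with 34.7, 37.2 and 33.9 FPKM in the experimental libraries, with a 95% interval of -0.08 to 0.16 for the log2 change (adjusted p = 0.626, limma).

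Whether a change differed between passages 1 and 6 was tested as a contrast of all 4 groups. For 5 of the 10 genes the change was lower at passage 6 than at passage 1, in a contrast that called 14.7% of 13019 genes in either direction and 6.27% in this one. The difference in log2 change was -0.92 for Spry2 (SE 0.09, adjusted p = 0.000216), -0.68 for Spry4 (SE 0.11, adjusted p = 0.00197) and -0.51 for Dusp6 (SE 0.09, adjusted p = 0.00408, limma). It was -0.55 for Spred1 (SE 0.11, adjusted p = 0.00764), the gene whose experimental libraries were above the controls at passage 1 and below them at passage 6. These 4 were called in all 26 alternatives, which include leaving out each library, each pair named above and 3 other scalings. Etv5 had a difference of -0.47 (SE 0.14, adjusted p = 0.0427) and was called in 11 of the 26. Single libraries that ended the Etv5 call were control 1, 2 or 3 or experimental library 1 or 4 of passage 1 (adjusted p = 0.0844, 0.0811, 0.0858, 0.0511 and 0.0758) and control 1, 2 or 3 or experimental library 1 or 2 of passage 6 (0.0875, 0.0600, 0.0975, 0.0700 and 0.0848).

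In the other 5 genes the difference between passages was not called. It was -0.45 for Dusp4 (95% interval -0.85 to -0.06, adjusted p = 0.115) and -0.47 for Dusp5 (-0.87 to -0.07, adjusted p = 0.108), sizes like that of Dusp6 with wider intervals. For Spry1 it was -0.25 (-0.48 to -0.02, adjusted p = 0.129), for Spred2 -0.29 (-0.54 to -0.05, adjusted p = 0.0973) and for Etv4 0.09 (-0.04 to 0.23, adjusted p = 0.340, limma). Without experimental library 1 of passage 1 the difference was called for Dusp4 (adjusted p = 0.0233), Dusp5 (0.0303) and Spry1 (0.0216), and without experimental library 3 of passage 6 for Spred2 (0.0138).

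The 10 genes spanned a wide range of levels on the length-scaled FPKM scale. In passage 1 controls the means ran from Dusp4 (67.2 FPKM) through Etv4 (49.9), Dusp6 (34.6), Etv5 (28.7), Spred2 (24.0), Spred1 (17.8), Spry2 (13.2), Dusp5 (9.61) and Spry1 (6.87) to Spry4 (5.09), and no neighbours in this order overlapped. In passage 1 experimental libraries Dusp6 (48.9 FPKM) and Etv4 (48.1) were level with overlapping ranges, as were Spry1 (8.45) and Spry4 (7.92). The range of Spry2 (25.3) overlapped with those of Spred2 (26.8) and Spred1 (22.4), which were separate from each other. Spry2 thus stood beside the Spred genes in these libraries and below them in the controls. At passage 6 Dusp4 was highest and Spry4 lowest in both groups, and Dusp6, Etv5 and Spred2 overlapped from one to the next. In the experimental libraries of passage 6 so did Spry2 and Spred1, and Dusp5 and Spry1. Passages were deposited as separate tables, so levels such as Dusp6 at 34.6 FPKM in passage 1 controls and 19.7 FPKM in passage 6 controls are set side by side without a test.

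Genes whose levels ran most alike were looked up for the highest member of each protein group, by Pearson correlation of log2(FPKM + 1), centred on each passage, over the 13 libraries and among 7534 genes with a mean of at least 5 FPKM. These correlations are descriptions, and the libraries share the same group difference. For Dusp4 they were Stat3, a transcription factor gene (r = 0.992), Dusp5 (0.980) and Bach1, a repressor gene (0.973). For Spry2 they were Aamp (0.974), the exchange factor gene Plekhg2 (0.969) and the kinase gene Sgk1 (0.965). Stat3 was at 11.7 and 15.6 FPKM, and Sgk1 at 18.3 and 31.6 FPKM, on average in passage 1 control and experimental libraries. For Spred2 they were the kinase gene Wnk1 (0.919), the deadenylase scaffold gene Cnot1 (0.914) and the centriole gene Cep120 (0.914), and for Etv4 the predicted gene Gm7993 (0.884), the glycosylation gene Mgat1 (0.872) and the peptidase gene Thop1 (0.867).

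Around the feedback genes, 124 other genes of the pathway were measured and 87 passed the filter at each passage. At passage 1, 29 of the 87 rose and 9 fell, with a median log2 change of 0.08. Over all genes 30.4% were called in either direction and 11.5% called higher. The count of 38 was 23, 25 and 20 without control 1, 2 and 3, and 12 without control 1 and experimental library 4 together. Over all genes tested those fits called 17, 16.7 and 17%, and 8.02% with both libraries left out. By role, 11 of 15 other targets rose and 1 fell, 5 of 12 receptors rose and 2 fell, and 4 of 11 nuclear factors and 4 of 20 Ras proteins and adaptors rose with 0 lower. In the kinase cascade 1 of 14 rose and 3 fell, among other inhibitors 3 of 11 rose and 2 fell, and 1 of 4 ligands rose and 1 fell.

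The receptor gene Fgfr1, a receptor for fibroblast growth factors, was also higher at passage 1. It had control values of 5.74, 6.08 and 6.28 FPKM, with 14.8, 14.4, 15.5 and 14.9 FPKM in the experimental libraries. Its log2 change was 1.17 (SE 0.05, adjusted p = 1.3e-05, limma). The experimental libraries were nearly equal and far above the controls. Igf1r, the insulin-like growth factor receptor gene, rose 1.51-fold (log2 change 0.60, adjusted p = 0.00265, limma). Among the ligands none called at passage 1 reached a mean of 5 FPKM, and Igf2, the highest, had control values of 0, 6.44 and 6.56 FPKM, with 4.18, 3.93, 4.16 and 0.0211 FPKM in the experimental libraries. Its 2 low values were in control 1 and experimental library 4, the libraries with cartilage sums of 6.36 and 7.85 FPKM, and the part of these transcripts was not tested. With those 2 libraries left out its log2 change was -0.56 (adjusted p = 0.0141), against -0.17 (adjusted p = 0.895) with them.

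Of the core cascade genes, Mapk3 and Braf were not called at passage 1. Mapk3, the gene of ERK1, had a log2 change of 0.04 (SE 0.08, adjusted p = 0.742), and the RAF gene Braf one of -0.04 (adjusted p = 0.590, limma). Araf, another RAF gene, fell 1.23-fold (adjusted p = 0.00285), and so did Lamtor3, a scaffold gene for MEK and ERK, 1.30-fold (adjusted p = 0.00259). The MEK genes were Map2k1 at 19.9, 19.9 and 19.7 against 23.1, 20.2, 26.0 and 26.9 FPKM (log2 change 0.26, adjusted p = 0.0672) and Map2k2 at 23.0, 23.7 and 24.1 against 20.3, 21.6, 18.3 and 18.8 FPKM (log2 change -0.25, adjusted p = 0.0211, limma). Experimental libraries thus lay above the controls in Map2k1 and below them in Map2k2. Without experimental library 2 Map2k1 had an adjusted p of 0.00794, and it was called with equal totals and median-of-ratios scaling (0.0452 and 0.0373). Map2k2 was not called without control 1, 2 or 3 (adjusted p = 0.0582, 0.0752 and 0.0837) or experimental library 4 (0.0552), nor with median-of-ratios scaling (0.0565).

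Upstream of RAF, the adaptor genes Shc1 and Frs2 rose 1.27- and 1.23-fold (adjusted p = 0.0450 and 0.0120), and Shoc2, which helps activate RAF, rose 1.15-fold (adjusted p = 0.0429, limma). Without control 1, 2 or 3 or experimental library 3 or 4 the adjusted p was 0.0530 to 0.128 for Shc1 and 0.0602 to 0.135 for Shoc2, and it was 0.0503 for Frs2 without control 3. Of the other inhibitors, Errfi1, a feedback inhibitor of the EGF receptor, rose 1.34-fold (adjusted p = 0.0232) and Dusp10, a phosphatase gene of the stress kinases, 1.28-fold (adjusted p = 0.0288). Dusp3, an atypical phosphatase gene, fell 1.48-fold (adjusted p = 0.000142) and Dusp16, another stress kinase phosphatase gene, 1.22-fold (adjusted p = 0.00854). The phosphatase genes outside the 10 therefore moved in both directions. Errfi1 was not called without control 2 or 3 or experimental library 4 (adjusted p = 0.0723, 0.0922 and 0.0562), nor Dusp10 without control 1 or 3 or experimental library 1 or 4 (0.110, 0.0859, 0.0601 and 0.0720).

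Of the nuclear factor genes 4 of 11 rose at passage 1, and of the other targets 11 of 15, beside 11.5% called higher over all genes. Srf, the serum response factor gene, rose 1.41-fold (adjusted p = 0.0109) and Ets2, an ETS factor that ERK phosphorylates, 1.30-fold (adjusted p = 0.0210), the latter not called without control 1, 2 or 3 or experimental library 4 (0.0553, 0.0681, 0.0796 and 0.0553). Cic, the Capicua gene, was at 9.26, 10.1 and 9.86 against 10.9, 10.1, 10.8 and 9.58 FPKM (adjusted p = 0.325), so its groups overlapped. The early growth response gene Egr2 had control values of 2.49, 2.81 and 2.38 FPKM, with 10.6, 7.27, 12.7 and 13.3 FPKM in the experimental libraries (log2 change 1.72, SE 0.18, adjusted p = 0.000548). Egr1 was at 34.0, 34.4 and 36.1 against 88.3, 69.6, 82.4 and 83.6 FPKM (log2 change 1.19, SE 0.08, adjusted p = 9.5e-05, limma). Both were above the controls in every experimental library. Vgf, a neurotrophin-induced gene, fell 1.24-fold (adjusted p = 0.0148), with adjusted p of 0.0625 and 0.0588 without control 2 or 3. Without control 1 and experimental library 4 together, Fgfr1, Igf1r, Araf, Lamtor3, Dusp3, Egr1 and Egr2 were still called. Shc1, Frs2, Shoc2, Map2k2, Errfi1, Dusp10, Dusp16, Srf, Ets2 and Vgf were then not called (adjusted p = 0.0788 to 0.212, limma).

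**Figure D4:**
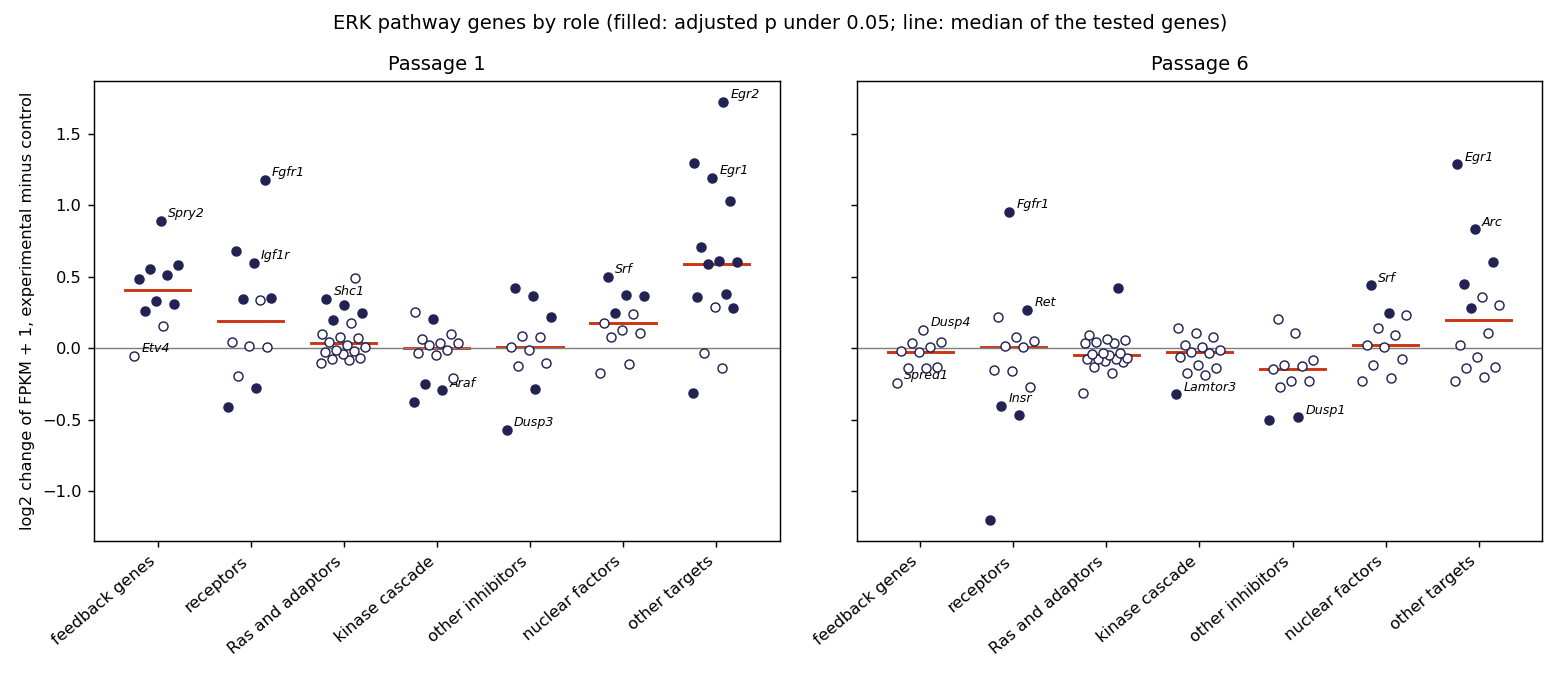
Log2 change of FPKM + 1 (y axis) of each tested gene of the pathway, by role (x axis, ligands left out), at passage 1 (left) and passage 6 (right). Filled points have an adjusted p under 0.05 and red lines are medians: at passage 1 the feedback genes (median 0.41) and the other targets (0.59) lie mostly above 0, and at passage 6 the feedback genes have a median of -0.02 and no filled point.

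At passage 6, 10 of the 87 other pathway genes rose and 7 fell, with a median log2 change of -0.04, beside 19.8% called over all genes. Without control 1, 2 or 3 the count of 17 was 8 each time, and without experimental library 1 it was 29. Over all genes tested those fits called 6.26, 5.47 and 6.12%, and 34.6% without experimental library 1. Fgfr1 had control values of 11.0, 10.7 and 11.0 FPKM, with 19.2, 24.6 and 22.5 FPKM in the experimental libraries, with no overlap (log2 change 0.95, SE 0.09, adjusted p = 0.00169, limma). Its change was not called different between the passages, at -0.22 (adjusted p = 0.148), though it was without experimental library 2 of passage 6 (-0.30, adjusted p = 0.0472) and without libraries 2 and 3 (-0.41, adjusted p = 0.0114). Egr1 was at 16.3, 17.5 and 18.0 against 63.4, 43.0 and 30.1 FPKM, again without overlap (log2 change 1.29, SE 0.23, adjusted p = 0.0119). Its change differed between passages by 0.10 (adjusted p = 0.833, limma), by 0.63 without experimental libraries 2 and 3 (adjusted p = 0.0176) and by -0.17 without library 1. Egr1 at passage 6 had adjusted p of 0.0509 and 0.0503 without control 1 or 2.

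Other receptor, cascade and target genes were called at passage 6. Ret, the receptor gene for GDNF family ligands, rose 1.20-fold to 227 ± 11.8 FPKM (SD, n = 3) (adjusted p = 0.0168), and Insr, the insulin receptor gene, fell 1.32-fold (adjusted p = 0.0138). Lamtor3 fell 1.25-fold (adjusted p = 0.0227), Dusp16 fell 1.42-fold (adjusted p = 0.0188) and Dusp1, an immediate early phosphatase gene, fell 1.40-fold (adjusted p = 0.00390, limma). Srf rose 1.36-fold (adjusted p = 0.00475), Erf, an ETS repressor gene that ERK inactivates, 1.19-fold (adjusted p = 0.0225), and Arc, an immediate early gene of neurons, 1.78-fold (adjusted p = 0.00444). Ret, Erf and Arc were already called higher at passage 1, with log2 changes of 0.35, 0.36 and 0.60 (adjusted p = 0.00355, 0.00817 and 0.0381, limma). Insr and Dusp1 were not called there (adjusted p = 0.764 and 0.691, limma). These passage 1 results were not followed through the alternatives. Igf2 was at 3.24, 3.95 and 6.95 FPKM in controls with 0.00017, 1.16 and 0.0923 FPKM in the experimental libraries (adjusted p = 0.00919), in libraries whose cartilage sums were 32.6 to 57.1 and 16.2 to 18.6 FPKM, a link that was not tested. Several of the passage 6 calls ended when any single control was left out, in fits that called 6.26, 5.47 and 6.12% of all genes tested. Without control 1, 2 or 3 adjusted p was 0.0598 to 0.0817 for Ret, 0.0551 to 0.0605 for Insr, 0.0645 to 0.0728 for Dusp16, 0.0740 to 0.0896 for Lamtor3 and 0.0740 to 0.1002 for Erf. Leaving out experimental library 2 or 3 gave 0.0580 and 0.0676 for Lamtor3, and 0.0549 and 0.0607 for Erf. With both left out Lamtor3 (0.0570) and Erf (0.0744) were not called either, while Fgfr1, Egr1, Ret, Insr, Dusp16, Dusp1, Srf and Arc were.

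**Figure D5:**
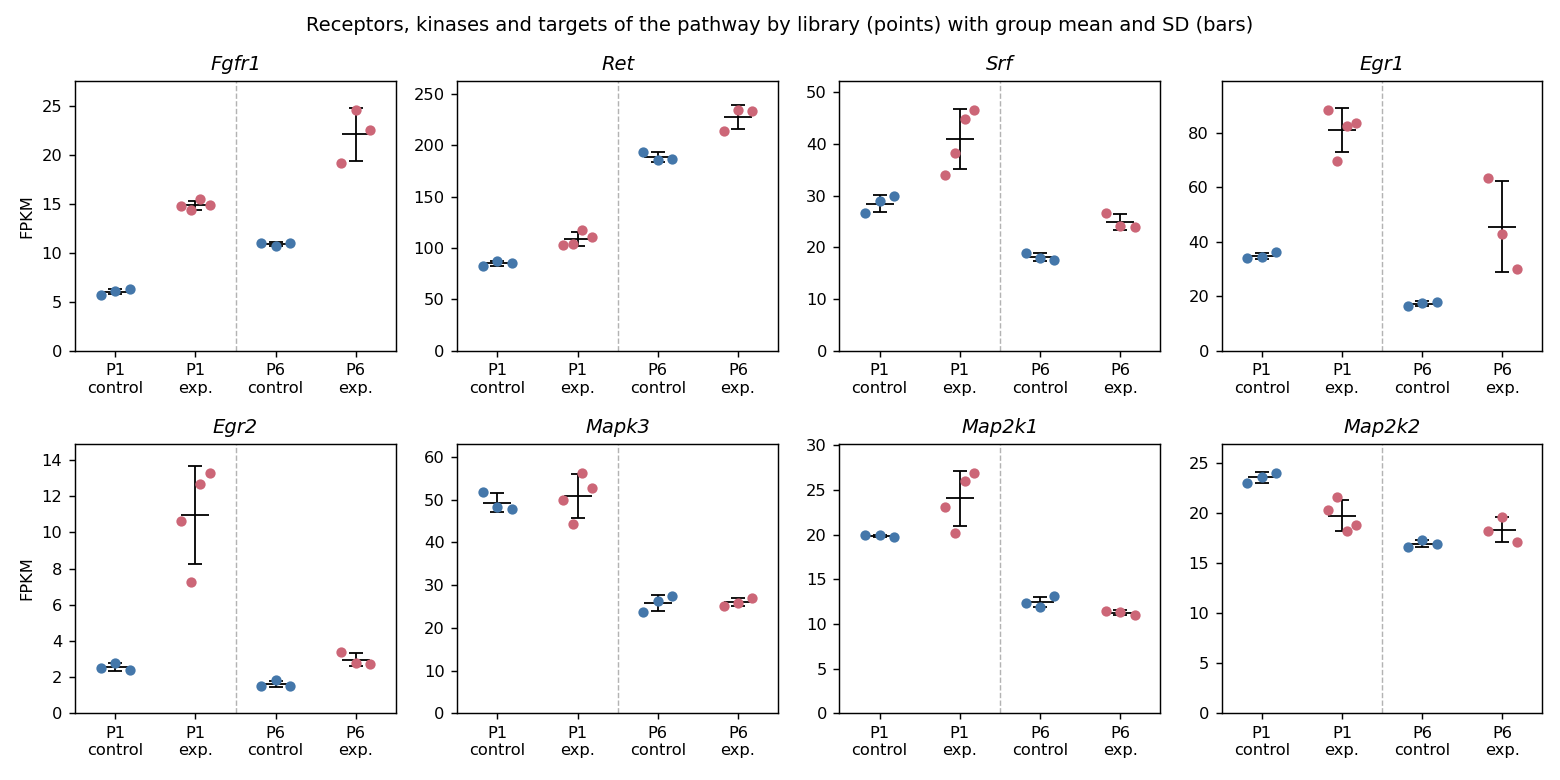
FPKM (y axis from 0) of 8 other pathway genes in each of the 13 libraries (points) by group, with means and SD. Fgfr1, Ret, Srf, Egr1 and Egr2 lie above the controls in every experimental library of both passages, while the Mapk3 groups overlap at both.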

How the data were processed

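Per the labels, RNA with an integrity number above 7.0 was poly(A)-selected and sequenced. The authors deposited FPKM, with a table for each passage. Tools named in the submitters' processing notes are HISAT2, StringTie, cutadapt, edgeR and DESeq2, and the genome named there is mm10. Versions, and how FPKM were scaled between libraries or whether counting used the strand, are not given in the sources used here. The tables list 34857 genes, of which 1 with an empty cell was left out and 34730 had a symbol in the GRCm38 annotation. No read counts are in the values, so no depth or counting error is given.

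Each passage was fitted with limma 3.58.1 in R 4.3.3 on log2(FPKM + 1), with an intensity trend, keeping genes that reached 1 FPKM in 3 or more libraries of the passage. Tests were two-sided, with Benjamini-Hochberg adjustment over all genes tested and a threshold of 0.05. Folds were taken from the fitted log2 change and so understate the change of low genes. The difference between passages was a contrast over the 13 libraries. The fit was tested on simulated data. Values varied there independently between genes and libraries, so effects shared by the genes of a library were not covered. Figures were made with matplotlib 3.10.9.

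The members, the pathway lists and the tests were chosen with earlier results of these data known. Besides the 10 members, the text names up to 2 called genes per role, direction and passage with the largest log2 change and a mean of at least 5 FPKM (or the highest gene where none was called), genes of the RAF, MEK and ERK kinases and Cic. Some genes that this rule names are not reported here. The passage differences of Fgfr1 and Egr1, the passage 1 values of Ret, Erf, Arc, Insr and Dusp1 and the passage 6 values of Egr2 and Igf2 were chosen after their values were seen. Alternatives were pseudocounts of 0.1 and 5, no filter or 5 FPKM, equal FPKM totals, median-of-ratios and quantile scaling, limma without trend, robust or with array weights, 1 fit over both passages, a replicate block and leaving out libraries. Spry3 was not analysed here, and no protein sequences were used.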

Additional observations from a re-analysis of the deposited data

Results flagged for a closer look

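In 5 feedback genes the change differed between the passages by the contrast over the 13 libraries. The log2 change at passage 6 minus that at passage 1 was -0.51 for Dusp6, -0.92 for Spry2, -0.68 for Spry4, -0.55 for Spred1 and -0.47 for Etv5, with all experimental libraries above the controls at passage 1 in each gene.

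Igf2 had 1 value far from the rest in the passage 1 experimental group, 0.0211 FPKM in library 4 against 3.93 to 4.18 FPKM in libraries 1 to 3. The gap to the nearest value took up 0.939 of the range of the group, past Dixon's 95% limit for 4 samples. This was 1 of 37 groups of 4 looked at, and chance alone marks about 1 in 20.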

How the results depend on the processing

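All 8 members called at passage 1 kept their direction in the 20 alternatives run there, and Dusp6, Spry2 and Spry4 kept their call in each. The count of 8 was 4 with no filter, 3 with the replicate block, 3 without control 1 and experimental library 4, and 3 to 8 when single libraries were left out. At passage 6 the count of 0 was 1 with array weights, 1 with 1 fit over both passages, 2 without experimental libraries 2 and 3 (Dusp4 and Etv5) and 0 to 1 without single libraries. The 5 members that differed between passages were 4 to 7 without single libraries. The 38 other pathway genes of passage 1 were 17 with the replicate block, 12 without control 1 and experimental library 4 and 20 to 42 without single libraries. The 17 of passage 6 were 9 with no filter, 27 with array weights and 8 to 29 without single libraries. Over all genes, called genes numbered 3792 at passage 1 and 2462 at passage 6, and 1813 and 1438 with the replicate block, 2053 to 4069 and 670 to 4257 without single libraries, 976 at passage 1 without control 1 and experimental library 4, and 1286 at passage 6 with no filter. With no filter 3001 of 30366 genes, 9.88%, were called at passage 1, against 30.4% in the main fit. At passage 6, 28.4% of all genes were called with array weights and 23.7% with 1 fit over both passages, against 19.8%. For the difference 1918 were called, 728 with the replicate block, 3192 with array weights, 1185 with no filter, 838 without control 1 and experimental library 4 and 1160 to 2547 without single libraries.

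Whether replicate numbers pair the libraries is not said in the labels, and the main fits take the libraries as unpaired. Deviations from the group means of libraries with the same number correlated at 0.17, -0.19 and 0.24 at passage 1. At passage 6 these correlations were -0.07, -0.06 and 0.03. Not every library correlated best with its own number, but so few correlations cannot decide whether the libraries are paired. With the number as a block 3 members were called at passage 1 (Dusp6, Spry2 and Spry4) and 4 for the difference between passages. Passage 1 has no control 4, so the block takes up experimental library 4, which then has no part in the estimate. The passage 1 log2 change of Araf was -0.287 both with the block and without that library.

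Directions turned in the results that follow, and no turned value was called. The passage 6 change of Dusp6 was 0.0089 with equal totals and 0.018 with median-of-ratios scaling (-0.071 to 0.016 without single libraries). That of Spry2 was 0.0037 and 0.012 with these scalings and 0.0059 without experimental libraries 2 and 3 (-0.072 to 0.010 without single libraries). Without libraries 2 and 3 that of Dusp5 was -0.0014 and that of Spry1 -0.042 (-0.048 to 0.040 without single libraries), and Etv4 was at -0.00066 to 0.065 without single libraries. At passage 1 Etv4 was at 0.013 with median-of-ratios scaling, and Braf at 0.014 with this scaling and 0.013 with quantile normalization. Igf2 was at 0.081 with a pseudocount of 0.1, at 0.41 with the replicate block and at -1.14 to 0.41 without single libraries, and Mapk3 at -0.012 to 0.10 without single libraries. The passage difference of Egr1 was -0.12 with array weights and -0.17 to 0.35 without single libraries. The cause of these changes was not tested.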
